A study of Homo sapiens with 6 samples.

Results

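The RGS genes (regulators of G protein signaling) RGS2, RGS3, RGS4, RGS10, RGS12 and RGS19, together with GNG11, which encodes the G protein gamma 11 subunit, were followed in MCF10A cells grown with or without growth factors. MCF10A is an immortalized, non-tumorigenic line of human mammary epithelial cells. RGS4 and GNG11 were far higher in the depleted cells, RGS12 was about 2.01-fold higher, and RGS2, RGS3, RGS10 and RGS19 had overlapping values in the 2 conditions. The 7 genes, of 19198 listed, were chosen on their expression in these same 6 samples, so their levels are given as a description, with no test.

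Heterotrimeric G proteins carry signals from cell surface receptors, and consist of an alpha subunit that binds GTP and a beta-gamma pair. RGS proteins speed the hydrolysis of GTP by the alpha subunit and so shorten the signal, whereas the gamma subunit, held in the membrane by a lipid, joins a beta subunit in the pair that itself acts on effectors. Cholera toxin, a part of the standard MCF10A medium, modifies the alpha subunit of Gs and keeps it active, which stimulates adenylyl cyclase, the enzyme that makes cyclic AMP. The comparison asked how removal of this toxin and of the other factors, which was used as a way to obtain epithelial to mesenchymal transition without added TGFβ, was accompanied by changes in gene expression.

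All cells received DMEM:F12 with 5% horse serum. The 3 control samples also received 10 µg/ml insulin, 20 ng/ml EGF, 100 ng/ml cholera toxin and 0.5 µg/ml hydrocortisone, and the 3 growth factor depleted samples received none of these 4 additions. Effects of the single factors therefore cannot be told apart, and the number of days without them is not given for these samples. The labels list 3 samples per condition, while the design text speaks of 2 replicates, and nothing says whether they came from separate cultures, so the error given is the spread between these samples. It was total RNA, depleted of ribosomal RNA, that was sequenced.

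Values are normalized counts, that is, reads per gene divided by a size factor of each sample and not by gene length. Between 7472418 and 28672630 reads lay on genes per sample, and 3 reads, taken as the limit of detection, corresponded to 1.76 to 6.71 normalized counts, which covers counting error only. The labels name luminal ductal cells. Luminal KRT18 (1716 to 6188) and basal KRT5 (12739 to 38503) were both detected in all control samples, and the hormone receptor ESR1 stood at 63.9 to 206 there. Depleted replicate 1 stood apart from the other samples. Its level of the epithelial cadherin CDH1 was 610 and that of KRT5 was 562, whereas the other 5 samples had at least 12961 of CDH1 and 10908 of KRT5. The same sample also had the highest RGS4, RGS5 and GNG11, and fold changes of these genes are given with and without it. In bulk RNA, more cells of a kind and more RNA per cell cannot be told apart.

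The sequences before the start sites of RGS4 and GNG11, the 2 genes with the largest differences, are shown beside that of RGS2, a relative of RGS4 on the same chromosome whose values overlapped. They are the 250 bases before a start site from RefSeq (GRCh38.p14), all on the plus strand. The positions are chr1:163069111-163069360 for RGS4, which is 1 of 4 start sites listed for it and lies within the gene, chr7:93921485-93921734 for GNG11 and chr1:192808789-192809038 for RGS2. Capitals mark a TATA box (TATAAA) and the arm of the cAMP response element (TGACG, here read from the other strand).
RGS4: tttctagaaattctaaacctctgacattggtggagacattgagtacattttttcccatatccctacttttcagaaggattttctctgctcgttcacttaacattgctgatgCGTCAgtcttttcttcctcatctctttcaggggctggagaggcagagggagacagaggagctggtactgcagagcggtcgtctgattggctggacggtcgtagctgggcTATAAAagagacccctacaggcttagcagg
GNG11: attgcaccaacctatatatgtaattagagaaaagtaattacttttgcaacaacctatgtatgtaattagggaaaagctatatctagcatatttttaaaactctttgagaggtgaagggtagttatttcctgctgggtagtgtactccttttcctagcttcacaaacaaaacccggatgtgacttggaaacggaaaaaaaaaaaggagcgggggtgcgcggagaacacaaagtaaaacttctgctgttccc
RGS2: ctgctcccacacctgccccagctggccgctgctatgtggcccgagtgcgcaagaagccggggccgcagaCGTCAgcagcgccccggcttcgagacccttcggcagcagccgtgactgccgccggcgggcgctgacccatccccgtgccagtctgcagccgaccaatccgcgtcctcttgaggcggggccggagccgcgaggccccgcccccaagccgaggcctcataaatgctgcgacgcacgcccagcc

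In RGS4 the TATA box lay 25 to 30 bases before the start, and TGACG lay 135 to 139 bases before it on the antisense strand. The RGS2 sequence held TGACG 177 to 181 bases before the start, also antisense, and the GNG11 sequence held neither. Windows of 300 bases (250 before and 50 after a start) were searched on both strands for all 7 genes, 20 windows in all, and for all 35116 windows of the table. TGACG was in 5 of the 20 windows and in 24.6% of all windows, TATAAA in 2 and in 11.5%, and TGCGGT, a form of the RUNX motif, in 1 and in 7.29%. Windows of a gene can overlap, and the same RGS4 copy of TGACG was counted in more than 1 window. The full cAMP response element TGACGTCA, which contains TGACG, was in 0 of the 20 and in 1.85% of all, the AP-1 motif TGANTCA in 0 and in 7.71%, and the RUNX form TGTGGT in 0 and in 13.1%. The motifs were picked after the expression values were known, and a match describes letters and does not show a site that is bound.

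RGS4, a small member of the R4 subfamily that acts on the alpha subunits of the Gi and Gq classes, had the largest difference of the 7 genes. The gene lies at chr1:163068775-163076802 on the plus strand (hg38). Its normalized counts were 0, 3.5 and 3.0 in control replicates 1, 2 and 3, from 0, 6 and 3 reads. In depleted replicates 1, 2 and 3 they were 7628.9, 1173.0 and 1498.1. RGS4 thus had at most 6 reads in a control sample and was abundant in every depleted sample, and depleted replicate 1 was above the other 2. The means were 2.16 ± 1.89 and 3433 ± 3637 (SD, n = 3 each). The pooled reads, 9 against 10794 and corrected for the size factors, gave a 1378-fold difference with a 95% exact binomial interval of 726 to 3015 that covers counting error only. On the log2(normalized count + 1) scale, which is used for all fold changes below, the difference was 9.83 ± 0.84 (SE). It was 8.99 without depleted replicate 1 and at most 10.34 with another sample left out. The gene passed the filter on low values, a mean of at least 10, through the depleted samples alone.

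GNG11, at chr7:93921735-93928610 on the plus strand, encodes a gamma subunit that carries a farnesyl lipid, unlike most gamma subunits. Control samples gave 16.3, 18.7 and 12.8 normalized counts, and depleted samples 751.5, 240.6 and 366.7. All depleted samples were above all control samples, with depleted replicate 1 again highest. The means were 15.9 ± 2.99 and 453 ± 266 (SD, n = 3 each), a ratio of 28.4. On the log2 scale the difference was 4.60 ± 0.51 (SE), and 4.15 without depleted replicate 1.

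RGS12 belongs to the R12 subfamily and is a large protein with further domains, among them a PDZ domain and a GoLoco motif that binds alpha subunits. The gene is at chr4:3293021-3439913 on the plus strand. Controls had 224.3, 296.4 and 560.7 normalized counts, and depleted samples 704.8, 743.5 and 726.7. The depleted samples were close to each other and all above the control samples, which were spread widely. The means were 361 ± 177 and 725 ± 19.4 (SD, n = 3 each), a ratio of 2.01. The log2 difference was 1.11 ± 0.37 (SE), with values from 0.83 without control replicate 1 to 1.49 without control replicate 3. Without depleted replicate 1 it was 1.14.

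**Figure D1:**
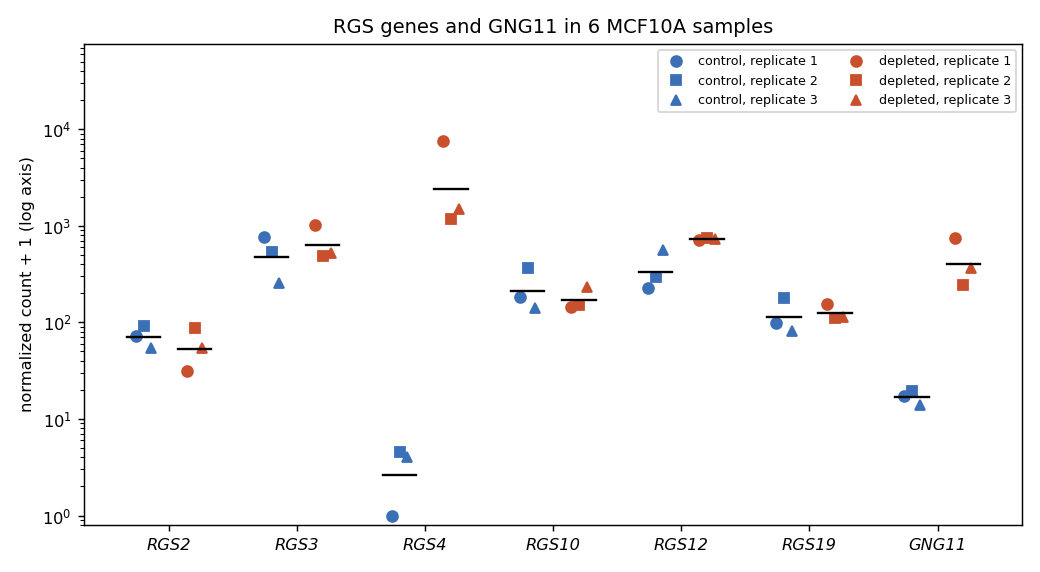
Normalized count plus 1 (log axis) of the 7 genes in each of the 3 control (blue) and 3 growth factor depleted (red) MCF10A samples, with marker shape for the replicate number and a black bar for the mean of the log values of a group. The depleted samples of RGS4 (1173.0 to 7628.9), GNG11 and RGS12 sit above all control samples, while the groups of RGS2, RGS3, RGS10 and RGS19 overlap.

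The other R4 members among the 7 genes, RGS2 and RGS3, had overlapping groups. RGS2, which acts mainly on Gq and is induced by cyclic AMP in many cells, had normalized counts of 71.4, 91.4 and 53.1 in the control samples. In the depleted samples they were 30.2, 85.9 and 53.7. The groups overlapped and the log2 difference was −0.43 ± 0.52 (SE). Its sign was the same with any sample left out, but it was only −0.05 without depleted replicate 1, which had the lowest value. RGS2 lies at chr1:192809039-192812275 on the plus strand.

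RGS3, which has long and short forms from several start sites, lies at chr9:113444731-113597743 on the plus strand. Control samples had 764.5, 530.8 and 255.8 normalized counts, and depleted samples 1007.7, 480.6 and 521.0. The means of 517 ± 255 and 670 ± 293 (SD, n = 3 each) were within each other's spread. The log2 difference of 0.43 ± 0.47 (SE) became −0.01 without control replicate 3. The values are sums over all forms of the gene, and the forms were not separated here.

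RGS10, the smallest R12 member, which acts on Gi class alpha subunits, lies at chr10:119499817-119542719 on the minus strand. With growth factors it had 181.7, 363.2 and 138.7 normalized counts, and without them 141.9, 150.1 and 232.5. RGS19, also called GAIP, is an RZ member with a cysteine string that anchors it to membranes, and lies at chr20:64073181-64079988 on the minus strand. It had 97.8, 179.9 and 80.7 in the control and 153.8, 110.2 and 114.0 in the depleted samples. Control replicate 2 was the highest control sample for both genes, and both groups overlapped. The log2 differences were −0.29 ± 0.45 for RGS10 and 0.15 ± 0.43 (SE) for RGS19, and neither kept its sign. RGS10 was at 0.10 without control replicate 2, and RGS19 at −0.09 without control replicate 3.

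In all, 3 of the 7 genes had every depleted sample above every control sample and 0 had every depleted sample below. Over the 16988 genes that passed the filter, these shares were 13.5% and 12.1%. Over the same genes, limma called 741 (4.36%) higher and 335 (1.97%) lower, at an adjusted p under 0.05 and at least 2-fold. A share of 6.33% of genes was called in either direction. Since the 7 genes were chosen on this contrast, no calls are given for them and nothing is read from their counts. The median log2 difference was 0.43 over the 7 genes and −0.03 over all genes tested.

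**Figure D2:**
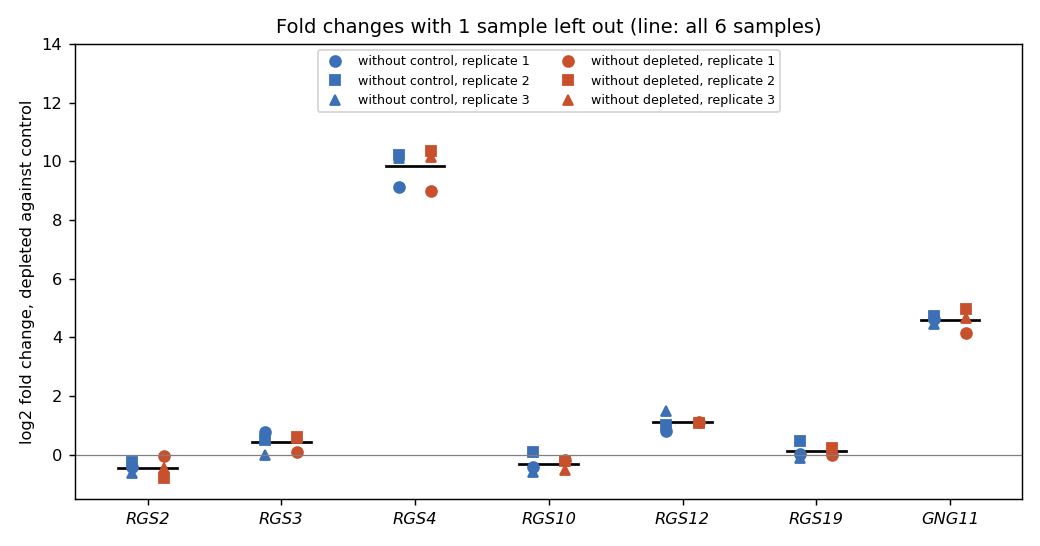
Log2 fold change of each of the 7 genes, depleted against control, when 1 of the 6 samples is left out (blue, a control sample left out; red, a depleted sample left out; shape, replicate number), with a black line for all 6 samples. RGS4 stays between 8.99 and 10.34 and GNG11 between 4.15 and 4.97, while RGS3, RGS10 and RGS19 fall on both sides of 0.

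Levels were compared between genes as TPM, a level per length and per library, from the reads and the length of the canonical transcript. In the control samples RGS10 was highest at 32.0 ± 12.7 TPM, followed by RGS3 at 15.9 ± 5.16, RGS12 at 11.3 ± 8.54, RGS19 at 9.65 ± 3.15 and RGS2 at 7.05 ± 0.95. GNG11 at 0.70 ± 0.07 and RGS4 at 0.11 ± 0.09 TPM came last (SD, n = 3 each). The samples of RGS3, RGS12, RGS19 and RGS2 overlapped from neighbour to neighbour in this order, whereas RGS10 lay above RGS3, RGS2 above GNG11, and GNG11 above RGS4 in all samples. In the depleted samples RGS4 came first at 156 ± 166 TPM, with 58.9 TPM in its lowest sample. RGS10 at 25.4 ± 5.08, RGS3 at 22.1 ± 9.74, RGS12 at 20.8 ± 2.39, GNG11 at 20.2 ± 11.9, RGS19 at 10.6 ± 2.17 and RGS2 at 5.83 ± 3.35 TPM followed. Below RGS4 the samples of each gene in this order overlapped those of the next. The order below RGS10 in the controls depended on the length used, since by exon length RGS19 made up 12.1 to 13.9% of the summed TPM of the RGS genes, RGS3 5.90 to 15.2% and RGS12 3.39 to 12.4%.

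The make-up of the RGS transcripts was therefore another in the 2 conditions. Over the 15 RGS genes listed, RGS4 made up 0, 0.12 and 0.18% of the summed TPM in the controls and 56.8, 34.4 and 36.8% in the depleted samples. RGS10 made up 29.6, 39.5 and 26.8% in the controls and 3.41, 14.2 and 18.5% in the depleted samples, although its own TPM overlapped between them. The summed TPM was 76.6, 118 and 100.3 in the control and 613, 171 and 168 in the depleted samples. RGS5 took 25.4% in depleted replicate 1 and 2.91 and 2.83% in the other depleted samples, against at most 0.70% in a control sample. With the length of all exons in place of the canonical transcript, RGS4 made up 53.5, 36.9 and 38.7% in the depleted samples.

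GNG11 remained a minor gamma subunit. Over the 6 gamma genes listed it made up 0.24, 0.25 and 0.35% of the summed TPM in the controls and 11.38, 2.30 and 2.75% in the depleted samples. GNG12, the most abundant gamma subunit here, made up 66.6 to 69.4% in the control and 61.9 to 75.0% in the depleted samples. GNG5 was next with 29.9 to 32.2% and 19.1 to 22.5%. By exon length GNG5 was at 6.85 to 7.58% in the controls and at 4.80, 4.27 and 3.94% in the depleted samples, where GNG11 was at 15.2, 3.01 and 3.55%, so that GNG11 was above GNG5 in depleted replicate 1 and below it in the other 2.

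**Figure D3:**
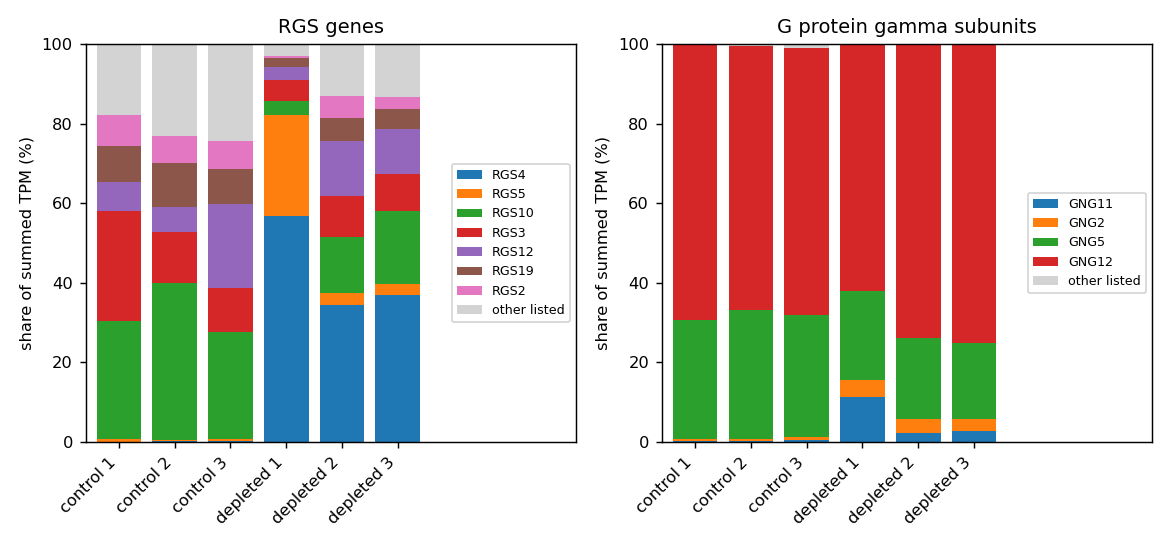
Share of the summed TPM (%) of 15 RGS genes (left) and 6 G protein gamma genes (right) in each of the 6 samples, as stacked bars by gene, with canonical transcript length. RGS4 takes 34.4 to 56.8% of the RGS sum in the depleted samples and at most 0.18% in the control samples, and GNG12 is the largest gamma share in every sample.

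The other genes of the RGS family were then tested on the table of all genes. The share of all genes with an unadjusted limma p under 0.05 is not given. Nothing is therefore read from counts of such genes in any list. Of 17 further family genes and RGS partners, 10 were listed, 8 had a mean of at least 10, and 1 was called higher and 0 lower by limma, against 4.36% and 1.97% of all genes. The median log2 difference of the 8 was 0.04. RGS5 was the gene called. It is an R4 member known as a marker of pericytes, and its start lies 253 kb from that of RGS4. Controls had 26.3, 15.2 and 20.7 normalized counts of RGS5, and depleted samples 6491.2, 188.2 and 219.1. All depleted samples were above all control samples, and 1 of them was far above the other 2. The log2 fold change was 4.93 (95% interval 2.17 to 7.68, limma adjusted p = 0.0494). It was 3.26 without depleted replicate 1 (limma adjusted p = 0.0146). Leaving out control replicate 1, 2 or 3 or depleted replicate 2 or 3 gave limma adjusted p of 0.129, 0.127, 0.0624, 0.0577 and 0.0639. The call held in 4 of 16 other settings, was lost in 11, in which the limma adjusted p lay between 0.0501 and 0.129, and had no adjusted p in DESeq2. RGS5 overlaps NUF2 on the opposite strand and a long noncoding RNA on its own strand, and the strand setting of the counting is not given, so that reads of these genes may be mixed. Of 5 pericyte and smooth muscle markers listed 4 were tested, and limma called 0, against 6.33% of all genes in either direction. edgeR called 1 and DESeq2 called 3, and 3 had an unadjusted limma p under 0.05. These were CNN1 with a log2 difference of 6.03 (limma adjusted p = 0.0728), CSPG4 with −2.14 (0.0544) and NOTCH3 with −3.04 (0.0644). CNN1 passed the filter on low values through the depleted samples alone. Without depleted replicate 1, limma called CNN1 and MCAM higher. The summed level of the 5 markers was 1305 to 2954 in the control and 874 to 7587 in the depleted samples.

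The other 7 family genes tested were not called. RGS20, an RZ member, had 138 to 278 normalized counts in the control and 108 to 141 in the depleted samples (log2 fold change −0.54, 95% interval −1.47 to 0.39, limma adjusted p = 0.53). RGS17, also of the RZ group, gave −0.71 (−1.86 to 0.45) and RGS16, of the R4 group, −1.37 (−3.10 to 0.36). RGS14, the third R12 member, gave 0.60 (−0.31 to 1.50). RGS9, known from the retina and the striatum, gave 2.84 (0.65 to 5.02, limma adjusted p = 0.135) with 12.8 to 26.8 normalized counts in the depleted samples and at most 8.9 in the controls. It passed the filter on low values through the depleted samples alone. RGS11 and the RGS9 anchor protein RGS9BP gave −0.01 (−1.83 to 1.80) and 0.09 (−1.09 to 1.28). These intervals leave room for changes of more than 2-fold for all of them. RGS6 and RGS7 had means under 10. RGS1, RGS8, RGS13, RGS18, RGS21, RGS22 and RGS7BP were not among the genes of the table used here.

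Of 14 tested proteins that carry an RGS-like domain beside other functions, 1 was called higher and 0 lower, against 4.36% and 1.97% of all genes, with a median log2 difference of 0.19. AXIN2, a scaffold of β-catenin destruction and a known target of WNT signaling, had 0, 0 and 1.0 normalized counts in the control and 24.7, 27.5 and 64.8 in the depleted samples. The gene was called at a limma adjusted p of 0.00652. Its control samples had 1 read in all, so that it passed the filter through the depleted samples alone. The log2 fold change was 4.86 with a pseudocount of 1, 2.16 with 10 and 5.64 with 0.5. The pooled reads gave a ratio of 113 with a 95% exact binomial interval of 19.7 to 4492, for counting error only. The call was lost without depleted replicate 3 (limma adjusted p = 0.0512). AXIN1, its relative, had 688 to 1164 and 845 to 1049 (0.08, −0.58 to 0.75). The receptor kinases GRK2, GRK3, GRK4, GRK5 and GRK6 were not called.

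**Figure D4:**
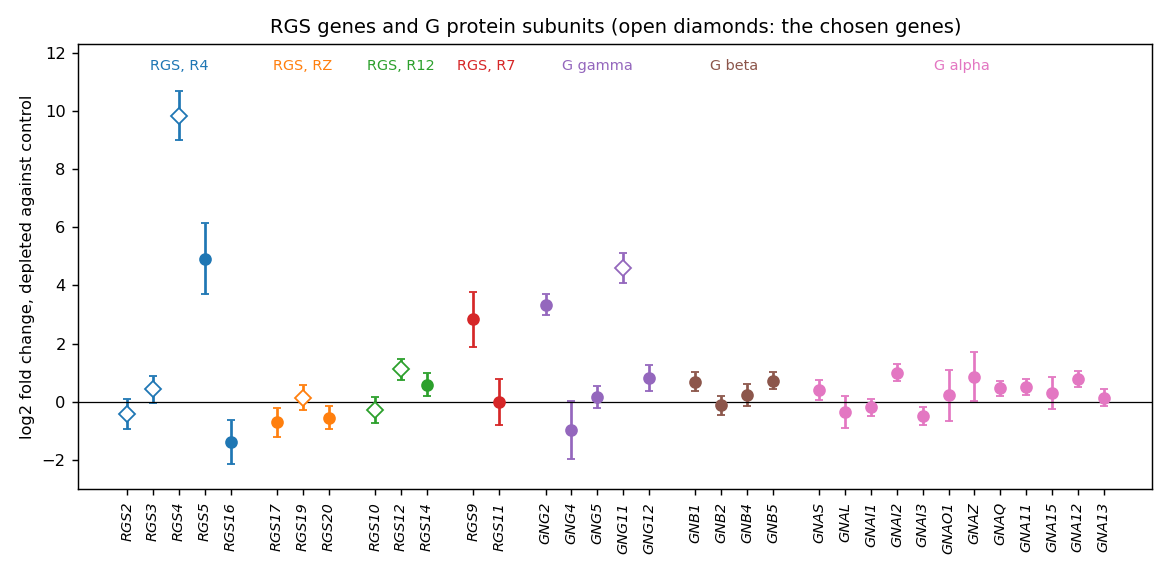
Log2 fold change, depleted against control, with its standard error from limma (bars), of RGS genes by subfamily and of G protein gamma, beta and alpha subunits (points; open diamonds are the 7 genes chosen on these values). RGS4, RGS5, GNG11 and GNG2 stand above 3, whereas the alpha and beta subunits lie between −0.47 and 1.005.

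Among the subunits of the G proteins themselves, a second gamma gene was higher without growth factors. GNG2, a widely expressed gamma subunit, had 35.1, 49.8 and 34.4 normalized counts in the control and 322.2, 434.0 and 485.2 in the depleted samples. The groups were far apart. Its log2 fold change was 3.35 (95% interval 2.49 to 4.21, limma adjusted p = 0.00211), and the call held in 16 of 16 other settings. Depleted replicate 1, which was highest for GNG11, was the lowest depleted sample for GNG2. GNG12 had 3612 to 7324 in the control and 5949 to 14529 in the depleted samples (0.81, −0.21 to 1.82, limma adjusted p = 0.373), and GNG5 and GNG4 were not called. In all 1 of 4 other gamma genes tested was called higher and 0 lower, against 4.36% and 1.97% of all genes, with a median of 0.49.

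No beta and no alpha subunit, of 4 and 12 tested, was called by limma, edgeR or DESeq2. Over all genes limma called 6.33% in either direction, and lists this short can hold no call at that share. Of 4 beta genes 1 had an unadjusted limma p under 0.05, GNB5 (log2 fold change 0.73, 95% interval 0.04 to 1.41), and GNB1, with the highest normalized counts, had 4212 ± 1211 and 6642 ± 889 normalized counts (SD, n = 3 each). Of 12 alpha genes 2 had such a p. GNAI2, an inhibitory alpha subunit of the class RGS4 acts on, had 1575.3, 2379.7 and 1492.3 in the control and 3551.3, 3085.6 and 4134.3 in the depleted samples (1.005, 0.33 to 1.68, limma adjusted p = 0.0902). Its adjusted p was 0.0907 in edgeR and 0.0291 in DESeq2, where the change was under 2-fold. GNA12 gave 0.80 (0.17 to 1.42). GNAS, which encodes the target of cholera toxin, had the highest normalized counts of the alpha genes, with 6306 ± 1671 and 8198 ± 1613 (0.40, −0.39 to 1.18). The median log2 differences were 0.47 for beta and 0.35 for alpha genes.

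Among the lists of G protein genes, the effectors had the lowest median. Of 6 adenylyl cyclase and phospholipase C beta genes tested, 1 was called lower and 0 higher, against 1.97% and 4.36% of all genes, with a median log2 difference of −0.80. ADCY3, an adenylyl cyclase, had 1783.4, 1739.4 and 2167.2 with growth factors and 660.8, 318.7 and 286.2 without them. Its log2 fold change was −2.26 (95% interval −3.09 to −1.44, limma adjusted p = 0.00859), and it was −2.64 without depleted replicate 1. The call was lost by a narrow margin without depleted replicate 2 (limma adjusted p = 0.0501). ADCY6, with the highest normalized counts of the list, had 2980 ± 664 and 1332 ± 259 (−1.15, −1.84 to −0.47) with a limma adjusted p of 0.0616. PLCB3 gave −0.73 (−1.43 to −0.03, limma adjusted p = 0.232). The 2 conditions did not overlap for these 3 genes, of 6 tested. Over all genes, 12.1% had every depleted sample below every control sample. The groups overlapped for ADCY9 (0.03), ADCY7 (−0.865) and PLCB4 (−0.36). ADCY4 and PLCB1, with means under 10, had every depleted sample above every control sample.

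Of 8 receptor-independent modulators and arrestins tested 0 were called by limma, edgeR or DESeq2, against 6.33% of all genes in either direction by limma. An unadjusted limma p under 0.05 was found for 1. This was GPSM1, an activator of G protein signaling (1.91, 95% interval 0.42 to 3.40, limma adjusted p = 0.137). RIC8A, a chaperone of alpha subunits with the highest normalized counts of the list over the 6 samples, had 1365 ± 335 and 1997 ± 373 (SD, n = 3 each, 0.56, −0.12 to 1.24).

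Of 26 G protein-coupled receptors tested 3 were called higher and 0 lower by limma, against 4.36% and 1.97% of all genes, with a median of 0.27. An unadjusted limma p under 0.05 was found for 8 of them, and without the share over all genes nothing is read from this count. LPAR1, a receptor for lysophosphatidic acid, had 7.5, 1.2 and 2.0 in the control and 504.3, 72.8 and 78.3 in the depleted samples (log2 fold change 5.24, 95% interval 3.20 to 7.28, limma adjusted p = 0.0116). It passed the filter on low values through the depleted samples alone. OXTR, the oxytocin receptor, had 16.3, 14.6 and 18.7 and then 742.3, 173.8 and 96.1 (3.74, 2.09 to 5.39, limma adjusted p = 0.0197). Depleted replicate 1 was by far the highest sample for both. PTGER4, a prostaglandin E2 receptor that couples to Gs, had 42.6, 73.2 and 18.7 and then 154.7, 693.0 and 487.4 (3.23, 1.68 to 4.79, limma adjusted p = 0.0278), with depleted replicate 1 the lowest depleted sample. Without that sample the 3 log2 fold changes were 4.33, 2.90 and 3.87, and all 3 were still called. The call of OXTR was lost without control replicate 1, control replicate 2 or depleted replicate 2 (limma adjusted p of 0.0688, 0.0612 and 0.0671). That of PTGER4 was lost without control replicate 1, depleted replicate 2 or depleted replicate 3 (limma adjusted p of 0.0848, 0.124 and 0.121). F2RL1, with the highest normalized counts of the receptors, had 973 ± 581 and 1206 ± 543 (0.38, −0.70 to 1.46). LPAR5 was lower without growth factors, with 193.0, 103.7 and 131.8 in the control and 11.9, 51.1 and 42.5 in the depleted samples. It was not called by limma (−2.18, limma adjusted p = 0.0784) but was called lower by DESeq2 (DESeq2 adjusted p = 0.0115).

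**Figure D5:**
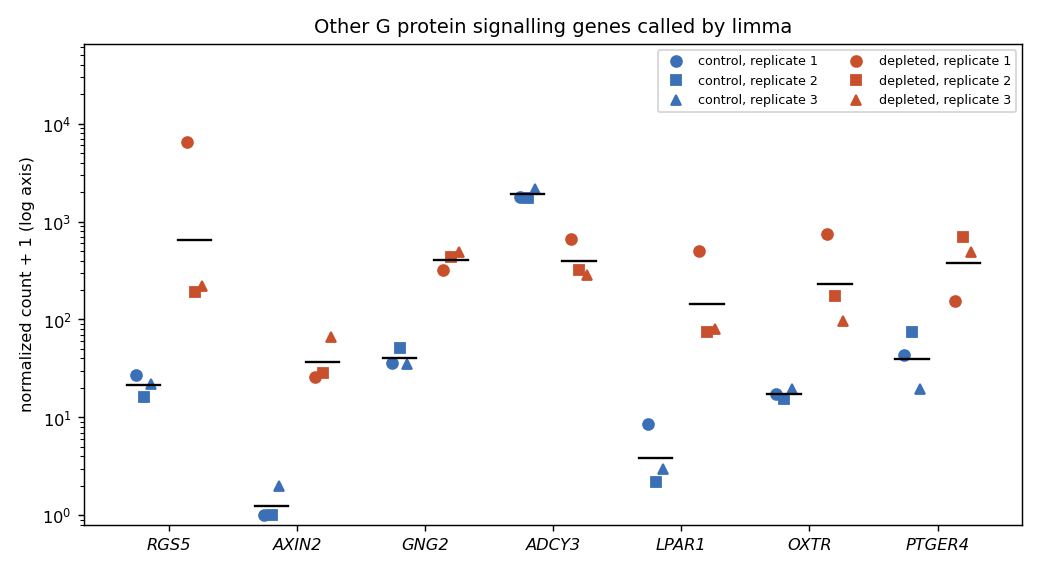
Normalized count plus 1 (log axis) of the 7 other G protein signaling genes called by limma, in each control (blue) and depleted (red) sample, with marker shape for the replicate number and a black bar for the mean of the log values. ADCY3 is the gene with all depleted samples below the control samples, and depleted replicate 1 is highest for RGS5, LPAR1 and OXTR but not for GNG2, AXIN2 or PTGER4.

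Mesenchymal markers, like RGS4 and GNG11, were higher in the depleted samples. All 6 of the list (VIM, CDH2, FN1, COL1A1, COL1A2 and PDGFRB) rose by limma, with a median log2 difference of 5.61 and summed levels of 3826 to 11310 in the control and 114000 to 189200 in the depleted samples. PDGFRB had a control mean under 10 and passed the filter through the depleted samples alone. Depleted replicate 1 had the highest depleted level of VIM, COL1A2 and PDGFRB and the lowest of CDH2 and FN1. COL1A1 had 1999.9, 2835.1 and 675.3 in depleted replicates 1, 2 and 3. Of 5 basal markers TP63 fell (log2 fold change −4.18, limma adjusted p = 0.027) and of 6 luminal markers KRT19 fell (−2.31, limma adjusted p = 0.0196). Others were positive and not called by limma without a replicate block. These were KRT14 (basal, 2.69, limma adjusted p = 0.184), KRT18 (luminal, 1.165, 0.22) and KRT8 (luminal, 1.10, 0.336). The rest were negative and not called by limma. Among the basal markers they were KRT5 (−2.04, limma adjusted p = 0.377), CDH1 (−1.67, 0.448) and EPCAM (−0.98, 0.6725). Among the luminal markers they were ESR1 (−2.995, limma adjusted p = 0.0632), ELF3 (−1.80, 0.0664) and GATA3 (−0.28, 0.865). An unadjusted limma p under 0.05 was found for 2 basal and 4 luminal markers. DESeq2 called 1 basal and 3 luminal markers, all lower, which were TP63, KRT19, ELF3 and ESR1. The summed basal markers were 28190 to 63070 and 2313 to 30950, and the summed luminal markers 11110 to 21500 and 17950 to 31040. Of 4 endothelial markers listed CDH5 rose (3.37, limma adjusted p = 0.0282), and it passed the filter on low values through the depleted samples alone. KDR had 778.3, 32.2 and 66.9 and then 0, 24.9 and 22.4 (−3.83, limma adjusted p = 0.193). PECAM1 had 91.5 to 998.8 in the control and 110.2 to 1581.6 in the depleted samples and was not called (limma adjusted p = 0.981). VWF was at no more than 13.4 in any sample. The summed endothelial markers were 167 to 1787 and 265 to 1610. Of 3 leukocyte markers listed 0 were called by limma, edgeR or DESeq2 on all 6 samples, against 6.33% of all genes in either direction by limma. An unadjusted limma p under 0.05 was found for 0 of them. PTPRC was at no more than 13.8. CD14 had 270.5 to 882.3 in the control and 72.8 to 646.2 in the depleted samples. Without depleted replicate 1, limma called CD14 lower (−2.52, limma adjusted p = 0.0396). The calls of TP63, KRT19 and CDH5 were each lost when some single samples were left out, at limma adjusted p of 0.0515 to 0.0668, 0.0836 to 0.0914 and 0.0618 to 0.148. The part of these cell states or cell types in the levels of RGS4, RGS5 and GNG11 was not tested.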

How the data were processed

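RNA-Seq of MCF10A cells was analysed in 6 samples, 3 per condition, with groups taken from the labels. The authors removed adapters with cutadapt, used TopHat2 to map single-end reads of 100 bases on hg38 and HTSeq to count reads of Gencode v22 genes, and deposited counts divided by DESeq2 size factors, a normalized signal per gene. The submitters' processing notes give cutadapt 1.6 and DESeq2 1.8.1. Every deposited signal value was a whole number of reads (100% within 0.01 read). Names and coordinates came from Gencode v44, which named 18913 of the 19198 identifiers and not 285.

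The values were tested with limma 3.58.1 in R 4.3.3 (trended eBayes) on log2(normalized count + 1) for 16988 genes with a mean of at least 10. Adjusted p-values are by Benjamini-Hochberg over all of these genes, and a call needed an adjusted p under 0.05 and at least a 2-fold change. The procedure was tested on simulated data. edgeR 4.0.16 and DESeq2 1.42.0 on the recovered reads, other pseudocounts, filters and scalings, a replicate block and the omission of each sample were alternatives. Each deposited gene has 3 or more reads in no fewer than 3 samples.

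The 7 genes and the gene lists were chosen with earlier results of these data known. Named are the 7 genes, every called gene of a list, the most abundant gene of each list and, for each of the 7, the 2 genes most like it, except that some of these are not reported here. Family genes that were not called, other genes set beside these, exon lengths, motifs and neighbours were added after the values were seen.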

Additional observations from a re-analysis of the deposited data

How the results depend on the processing

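Of 256 comparisons of 16 results with 16 settings, 227 stayed within the limits set and 29 moved, and none reversed a called direction. Some of the 227 could not have moved. Results that are a log2 fold change stay the same by construction without a filter, with a filter at a mean of 50, without trend or with a replicate block. RGS3, RGS10 and RGS19, whose groups overlap, changed sign with 1 sample left out, and these changes counted as within the limits. The 227 is therefore no measure of how stable the results are. The log2 fold change of RGS4 was 7.63 with a pseudocount of 10, and 10.28 with 0.5. The number of genes called, 1076, became 2112 with DESeq2 and 971 with edgeR, and lay between 445, without depleted replicate 2, and 2483, without control replicate 3, when 1 sample was left out. It was 459 without depleted replicate 3, 645 without control replicate 1 and 681 without control replicate 2. The call in the other RGS genes, RGS5, gave 0 with a pseudocount of 0.5 or 10, eBayes without trend, quantile normalization, a filter at a mean of 50 and a rescaling to equal totals, and 0 with DESeq2, which gave no adjusted p. With 1 sample left out the count was 0 to 1, where the 1 call without control replicate 3 was RGS9 and not RGS5. The call of AXIN2 could not be made with the filter at 50, which gave 0 for the RGS-like proteins, and their count was 0 to 1 with 1 sample left out (0 without depleted replicate 3). For effectors 2 were called without a filter (with PLCB1) and with DESeq2 (with ADCY6), and 0 to 2 with 1 sample left out (0 without depleted replicate 2). Receptors called were 6 with DESeq2 (5 higher and 1 lower). They were 1 to 5 with 1 sample left out (1 without control replicate 1 or depleted replicate 2, 5 without control replicate 3). Of those 5, 4 were higher and 1 lower. Modulators called were 0 to 1, the 1 being GPSM1 without control replicate 3. The cause of these shifts was not tested. Same-numbered samples did not deviate together (correlations of −0.07, −0.28 and −0.32). With a replicate block, 967 genes were called over all genes, and the counts were 1 for the other RGS genes, 1 for the RGS-like proteins, 1 for other gamma subunits, 0 for beta and alpha subunits and modulators, 1 for effectors and 3 for receptors. Among the markers, KRT19 then had a limma adjusted p of 0.0529 and KRT14 was called higher (limma adjusted p = 0.0304). No sample correlated best with the sample of its own number. Depth limits RGS4 in the control samples, where 9 reads in all were counted, and the lists with few genes above the filter.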

Other observations

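The genes around RGS4 and GNG11 were examined within 300 kb of each, a window chosen after the values were seen. Of the 6 neighbours of RGS4, all tested, 2 were called higher by limma, against 4.36% of all genes. The first is RGS5, whose call was lost in 11 of 16 other settings. The other is CCDC190, a gene that lies on the opposite strand upstream of RGS4. CCDC190 had no read in any control sample and 98.9, 80.0 and 100.6 normalized counts in the depleted samples, at least 33.0-fold higher than 3 reads per control library would give (limma adjusted p = 8.2e-04). It passed the filter on low values through the depleted samples alone. DDR2, a collagen receptor, had 12.5, 4.1 and 61.0 and then 440.3, 97.7 and 71.6, and was not called (limma adjusted p = 0.111). HSD17B7, NUF2 and a long noncoding RNA had overlapping groups.

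Of the 3 neighbours of GNG11, 2 were tested and 1 was called higher, against 4.36% of all genes. TFPI2, an inhibitor of serine proteases whose start lies 31.0 kb away on the opposite strand, had 1.3, 8.2 and 4.9 normalized counts in the control and 116.2, 49.8 and 42.5 in the depleted samples (log2 fold change 3.68, limma adjusted p = 0.0215). The call of TFPI2 was lost without control replicate 1 or depleted replicate 1, 2 or 3 (limma adjusted p of 0.0613 to 0.0863). TFPI2 passed the filter on low values through the depleted samples alone. BET1, a vesicle transport gene on the far side, had 547.7, 596.4 and 418.1 and then 284.7, 367.8 and 330.9 (−0.66, limma adjusted p = 0.259). Neighbours in the genome are not independent of one another, and whether the genes at these places change together was not tested.

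The genes whose pattern over the 6 samples was most like that of each of the 7 genes were taken by Pearson's r of the log2 values, among genes with a mean of at least 100, as a description. For RGS4 one of these was DPYSL3 (r = 0.997), a cytoskeletal protein of growing neurons, with 13.8 to 28.5 normalized counts in the control and 10301 to 49178 in the depleted samples. For GNG11 they were DDX24 (r = 0.998), an RNA helicase that had only 2178 to 2246 and 2804 to 3159, and ANKH (r = 0.998), a membrane transporter, with 332 to 402 and 1075 to 1733. RGS4 and GNG11 themselves had r = 0.986. With 2 groups this far apart, r mostly reflects the difference between them.

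For the genes with overlapping groups the most alike were VRK2 and BNC1 for RGS2, MCFD2 and CAVIN2 for RGS3, SLC25A43 and C7orf50 for RGS10, and MYEOV and TEAD4 for RGS19, and for RGS12 they were COQ10A and DNAH14, all with r between 0.965 and 0.996. As the highest of 11687 or 11688 genes over only 6 samples, these r were chosen to be high, and shared regulation was not tested.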
